A study of Mus musculus with 6 samples.

Results

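Caveolins and cavins are the proteins that form caveolae, the small flask-shaped pits of the plasma membrane. The genes described here were the 3 caveolins *Cav1*, *Cav2* and *Cav3* and the 3 cavins that the deposited table lists under the older symbols *Ptrf* (*Cavin1*), *Sdpr* (*Cavin2*) and *Prkcdbp* (*Cavin3*). These 6 genes of the 23159 in the table were selected on their counts in LRCs and non-LRCs paired by experiment, and all 6 passed the filter on low counts that left 13728 genes for testing. Values of that contrast are therefore given as a description, with the adjusted p-values of a fit to all genes.

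Bulk RNA-seq was done on growth plate chondrocytes of Col2-Q mice at P49. The mice, the same for both groups, were homozygous for *Col2a1-tTA* (at *Peli2*), *TRE-H2B-GFP* (at *Col1a1*), *Col2a1-creER* and *R26R*-tdTomato, were fed doxycycline from P21 to P49 and received tamoxifen at P46 and P47. The *Col2a1* promoter drives both the tetracycline transactivator and the recombinase, so that H2B-GFP was made in chondrocytes until doxycycline stopped it and was then diluted by division. LRCs were the CD45-negative tdTomato+ cells with the highest GFP and non-LRCs those with middle to low GFP. They were sorted from the distal femur and proximal tibia, with cells of several littermates pooled in each of 3 independent experiments. Each experiment gave 1 library of about 10000 LRCs and 1 of about 50000 non-LRCs, so that group and cell number cannot be told apart. The libraries held 18943789 to 129559872 counts. The library of LRCs from experiment 2 had the lowest total and stood apart, with 1731 of the tested genes at 0 (4 to 365 in the other libraries) and a mean correlation with the others of 0.832 (0.894 to 0.919 for the rest), so results are also given without experiment 2 where they depend on it. The labelled cell type was matched by *Col2a1*, the main cartilage collagen, with a mean normalized level of 126227 CPM (LRCs) and 134437 CPM (non-LRCs), counts scaled to the library total.

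Caveolins are hairpin proteins of the inner membrane leaflet. *Cav1* and *Cav2* are coexpressed in most tissues and their products form mixed oligomers, whereas *Cav3* is the caveolin of skeletal and heart muscle. Cavins are cytosolic coat proteins: Cavin1 is needed for caveolae to form, Cavin2 and Cavin3 join its complexes, and Cavin4, encoded by *Murc*, is the cavin of muscle. Caveolae are abundant in muscle, fat and endothelium, and are known to flatten when the membrane is stretched. *Murc* was not one of the 6 genes and is described beside them because it completes the cavin family.

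On GRCm38 (GENCODE vM21), *Cav2* (chromosome 6, 17281185 to 17289115) and *Cav1* (chromosome 6, 17306335 to 17341452) lie on the plus strand 17219 bases apart. *Cav3* lies on the same chromosome and strand (112459505 to 112472872) and overlaps no annotated gene. *Ptrf* lies on the minus strand of chromosome 11 (100956733 to 100970887), *Sdpr* on the plus strand of chromosome 1 (51289126 to 51302960), and *Murc* on the plus strand of chromosome 4 (48663514 to 48673502). *Prkcdbp* lies on the minus strand of chromosome 7 (105480083 to 105482300). It shares 374 of its 1662 exonic bases with *Gm45667* on the other strand, and since the strand setting of the counting is not stated, its level is uncertain by the reads of that stretch.

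The 250 bases before the transcription start are shown for *Cav3*, which differed most clearly between the groups, for *Murc*, the other muscle member, which had a like pattern, and for *Cav1*, the most abundant caveolin. They are RefSeq sequences of GRCm38.p6, written 5′ to 3′ along the gene, and end at the base before the first transcribed one. Capitals mark matches on either strand to CAGCTG (an E-box bound by myogenic factors), TATAAA or GGGCGG (a GC box).
Cav3, chr6:112459255-112459504 (plus strand): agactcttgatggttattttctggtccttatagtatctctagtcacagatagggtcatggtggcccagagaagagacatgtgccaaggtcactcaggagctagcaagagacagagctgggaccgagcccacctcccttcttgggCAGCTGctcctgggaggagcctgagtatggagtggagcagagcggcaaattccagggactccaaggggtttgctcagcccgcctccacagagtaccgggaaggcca
Murc, chr4:48663264-48663513 (plus strand): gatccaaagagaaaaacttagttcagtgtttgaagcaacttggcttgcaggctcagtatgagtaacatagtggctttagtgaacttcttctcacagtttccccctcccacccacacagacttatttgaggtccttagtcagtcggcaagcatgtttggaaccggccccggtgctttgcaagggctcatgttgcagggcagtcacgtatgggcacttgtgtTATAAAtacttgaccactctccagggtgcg
Cav1, chr6:17306085-17306334 (plus strand): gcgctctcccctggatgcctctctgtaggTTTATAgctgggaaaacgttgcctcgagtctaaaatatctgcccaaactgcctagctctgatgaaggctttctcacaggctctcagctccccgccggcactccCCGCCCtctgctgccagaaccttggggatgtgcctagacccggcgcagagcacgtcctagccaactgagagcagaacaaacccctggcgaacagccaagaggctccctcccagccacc
The *Cav3* window held 1 CAGCTG, 106 bases before the start, a motif found in 4271 of the 32851 mouse starts searched in the same way. The *Murc* window held 1 TATAAA at 30 bases before the start, against 12.4% of all starts. In the *Cav1* window, TATAAA and GGGCGG both stood on the minus strand, 221 and 118 bases before the start, and GGGCGG was found in 32.7% of starts. This window belongs to the first of 2 RefSeq starts of *Cav1*. The window of the second (chr6:17307390-17307639) held neither motif. No MEF2 motif, which 0.508% of starts held, was found in the windows of *Cav1*, *Cav2*, *Cav3*, *Ptrf*, *Sdpr* or *Murc*. The GC content was 56.0% for *Cav3*, 48.8% for *Murc* and 59.6% for *Cav1*, beside a median of 52.4% over all starts (quartiles 45.2 and 61.2%). CpG dinucleotides stood at 0.21 of the number that base composition gives in *Cav3*, 0.34 in *Murc* and 0.47 in *Cav1*, or 0.59 at its second start (median of all starts 0.37, quartiles 0.17 and 0.72). *Sdpr* was at 0.20, and *Prkcdbp* was not examined. A match of letters does not show binding.

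The family was expressed over a wide range. Levels of different genes are compared as TMM-normalized CPM per kilobase of merged exons, averaged over the 6 libraries. *Cav1* stood highest at 103, between 65.4 and 165 in single libraries and above 97.3% of the tested genes. *Prkcdbp* followed at 86.9 (58.6 to 136), *Ptrf* at 54.5 (22.2 to 94.4) and *Cav2* at 44.8 (31.6 to 54.1). *Cav3* was at 11.8 (2.07 to 27.0), *Murc* at 7.76 (0.582 to 17.3), and *Sdpr*, at 0.71 (0 to 1.60), stood above only 24.3% of tested genes. Ranges of neighbours in this order overlapped, except that *Cav2* in every library was above *Cav3* in every library.

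**Figure D1:**
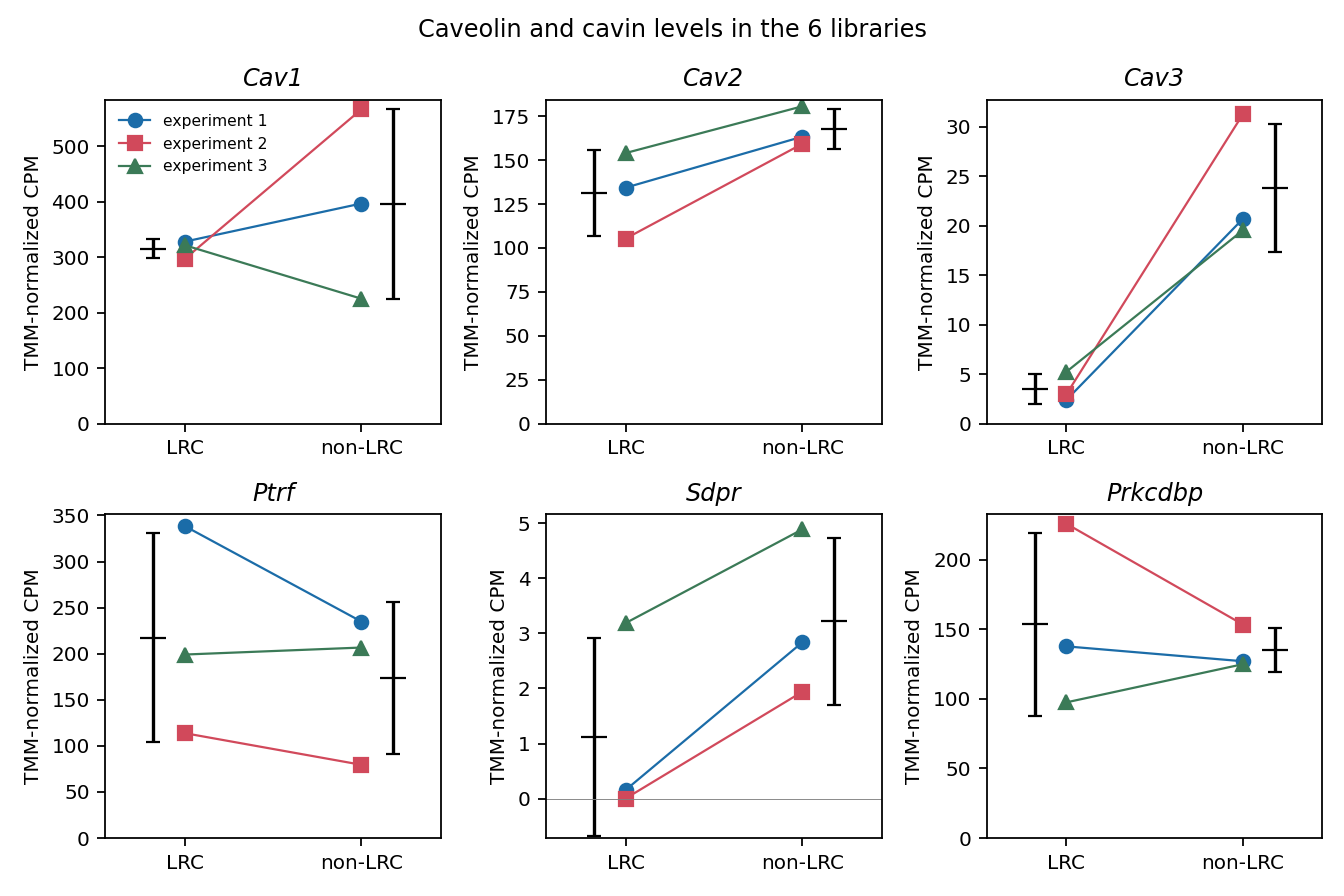
TMM-normalized CPM of the 3 caveolins and 3 cavins (vertical axes, a separate linear scale for each gene) in LRCs and non-LRCs; a line joins the 2 libraries of an experiment, and the black marks are the group mean ± s.d. (n = 3 libraries), which for *Sdpr* reaches below 0. The groups are apart for *Cav2* and *Cav3* and overlap for the other 4 genes.

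Of the caveolins, *Cav3* was lower in LRCs in every experiment. Reads assigned to it numbered 279, 62 and 225 in LRCs (experiments 1, 2 and 3) and 2139, 1195 and 972 in non-LRCs. As CPM, these were 2.39, 2.96 and 5.24 in LRCs and 20.7, 31.3 and 19.6 in non-LRCs. All LRC libraries lay below all non-LRC libraries, and the highest LRC value was that of experiment 3. The means were 3.53 ± 1.51 and 23.9 ± 6.47 CPM (s.d., n = 3 each), and the log2 fold change fitted with edgeR was -2.80 (SE 0.39, adjusted p = 0.0440), or 6.98-fold lower in LRCs. The log2 difference was -3.10, -3.39 and -1.89 in experiments 1, 2 and 3. Without experiment 2 the fitted value was -2.51 and still passed the test. Without experiment 1 it was -2.64 with edgeR's adjusted p at 0.148, and without experiment 3 it was -3.23 at 0.0053. After a correction for GC content and length it was -2.50 at 0.0575. On all libraries DESeq2 gave -2.79 at an adjusted p of 7.1e-10, and limma-voom gave -2.77 at 0.0014. The call thus depended on these choices while the direction did not. In bulk RNA, fewer cells with *Cav3* and less *Cav3* RNA per cell cannot be told apart.

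*Cav1*, the principal caveolin of non-muscle cells, had no common direction over the experiments. Its CPM in LRCs was 328, 297 and 322 in experiments 1, 2 and 3, and in non-LRCs 397, 567 and 225. The LRC libraries were within 1.105 times of each other, while the non-LRC libraries spread over 2.52 times and enclosed them. The means were 316 ± 16.5 and 396 ± 171 CPM, and the fitted log2 fold change was -0.23 (SE 0.28, edgeR adjusted p = 0.709). Without experiment 2 the value was 0.12, and after the GC and length correction it was 0.00.

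*Cav2*, whose product depends on Cav1 to reach the cell surface, reached 134, 105 and 154 CPM (LRCs) and 163, 159 and 181 CPM (non-LRCs). The groups did not overlap, but the difference was small and did not pass the test. The means were 131 ± 24.5 and 168 ± 11.3 CPM, and the log2 fold change was -0.37 (SE 0.15, edgeR adjusted p = 0.262). After the GC and length correction this fold change was -0.06 (SE 0.12, edgeR adjusted p = 0.847). Though *Cav1* and *Cav2* are neighbours on chromosome 6, their ratio per length was not fixed: it was 2.37, 2.73 and 2.02 in LRCs and 2.36, 3.45 and 1.21 in non-LRCs.

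The make-up of the caveolin transcripts followed. Per length, *Cav3* was 1.5, 2.13 and 3.14% of the summed caveolins in LRCs and 9.82, 11.3 and 12.4% in non-LRCs. *Cav1* remained the largest share in every library, with 64.8 to 71.7% in LRCs and 48.0 to 68.8% in non-LRCs. The summed caveolin level per kilobase overlapped between groups, at 138, 120 and 144 CPM for LRCs against 182, 239 and 136 CPM for non-LRCs.

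**Figure D2:**
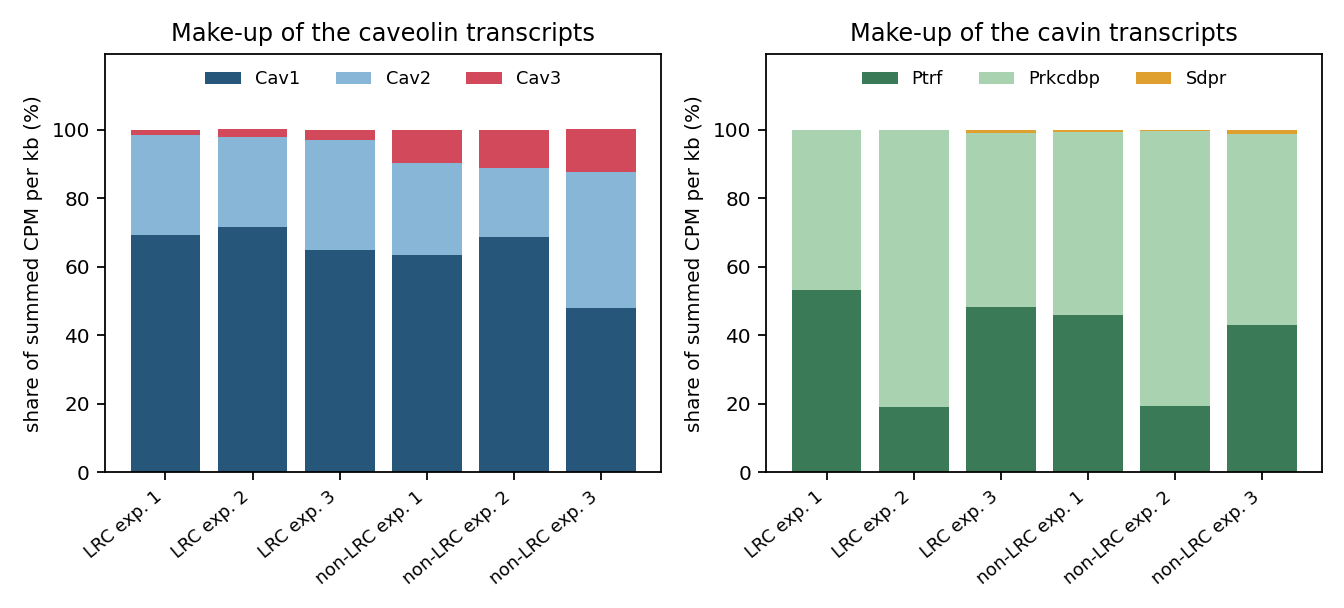
Share of each caveolin (left) and each of the 3 cavins (right) in its family's summed CPM per kilobase of exon (vertical axis, %), for each library of an experiment (exp.). *Cav3* holds 1.5 to 3.14% of the caveolins in LRCs and 9.82 to 12.4% in non-LRCs, and *Ptrf* holds less of the cavins in both libraries of experiment 2 than in the other 4.

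Of the cavins, *Ptrf*, which encodes the coat protein required for caveolae, had 339, 114 and 199 CPM in LRCs; in non-LRCs it had 235, 79.5 and 207 CPM. The groups overlapped, and the libraries of experiment 2 were the lowest in both. The means were 217 ± 113 and 174 ± 82.8 CPM, and the fitted log2 fold change was 0.33 (SE 0.17, edgeR adjusted p = 0.371). *Prkcdbp*, whose product binds protein kinase C delta, had 138, 226 and 97.5 CPM in LRCs; the non-LRC values were 127, 153 and 125 CPM. Here the libraries of experiment 2 were the highest in both groups. The means were 154 ± 65.7 and 135 ± 15.9 CPM, and the log2 fold change was 0.11 (SE 0.20, edgeR adjusted p = 0.821), or -0.12 without experiment 2.

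*Sdpr*, a cavin that shapes membrane curvature, was the least abundant of the 6 genes. It had 18, 0 and 137 counts in LRCs and 293, 74 and 243 in non-LRCs, or 0.154, 0 and 3.19 CPM against 2.84, 1.94 and 4.89 CPM. The LRC library of experiment 3 lay above 2 of the non-LRC libraries, so the groups overlapped although the LRC value was the lower one in each experiment. For LRCs of experiment 2, its count of 0 allows a level of up to 0.143 CPM (3 counts, counting error only). The means were 1.11 ± 1.80 and 3.22 ± 1.51 CPM, and the log2 fold change of -3.55 had an SE of 1.49 (edgeR adjusted p = 0.281). DESeq2 gave -3.69 with an adjusted p of 0.0155. The single experiments differed by -3.94, -5.93 and -0.61, so the size of the fitted value is poorly determined.

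*Murc*, the muscle cavin, had 284, 25 and 374 counts in LRCs and 2077, 1356 and 1374 in non-LRCs. This was 2.43, 1.20 and 8.70 CPM against 20.1, 35.5 and 27.6 CPM, with no overlap between the groups, as for 18.7% of all tested genes. The means were 4.11 ± 4.03 and 27.8 ± 7.70 CPM and the log2 fold change -3.12 (SE 0.64), with an adjusted p of 0.0810 by edgeR, which did not pass. With experiment 2 left out, edgeR gave -2.35 at an adjusted p of 0.0221, and DESeq2 on all libraries gave -3.14 at 8.8e-07. In edgeR it did not pass without experiment 1 (-3.18, adjusted p = 0.222) or without the experiment as a block (-2.75, adjusted p = 0.261). Nor did it pass after the GC and length correction (-2.86, edgeR adjusted p = 0.0962). *Murc* had 25 counts in the shallow LRC library of experiment 2, where it was lowest.

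**Figure D3:**
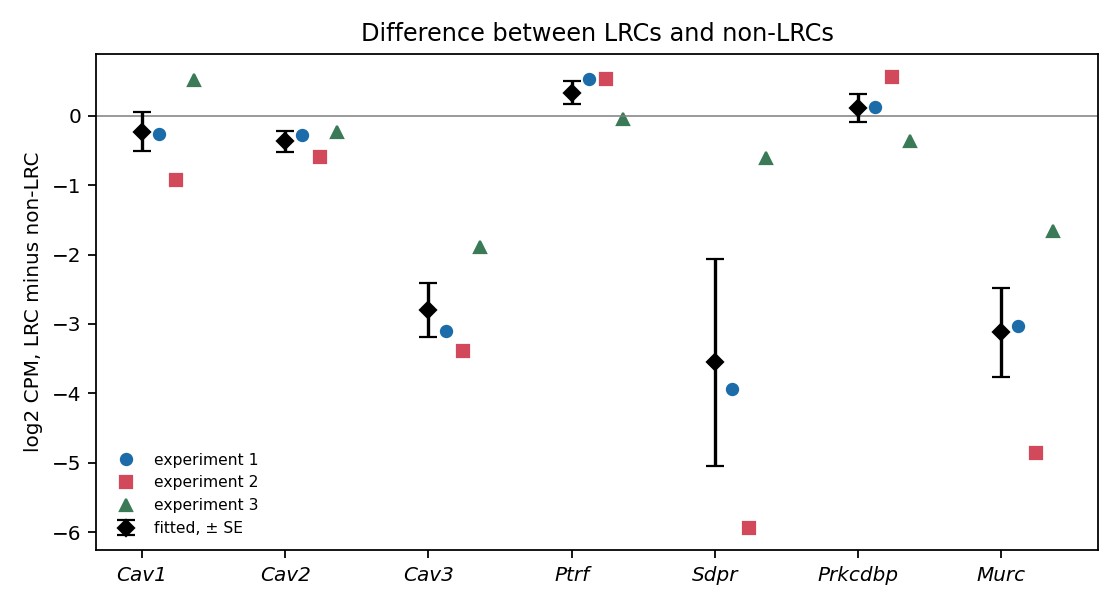
Difference in log2 CPM between LRCs and non-LRCs (vertical axis, LRC minus non-LRC) for the 6 genes and *Murc*; diamonds are the fitted log2 fold change ± SE and coloured symbols the difference within each experiment. *Cav2*, *Cav3*, *Sdpr* and *Murc* lie below 0 in all 3 experiments, and *Sdpr* has the widest error.

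Counted together, 1 of the 6 genes (*Cav3*) was called at an adjusted p below 0.05 and a fold of at least 2 in edgeR, where 1.21% of all tested genes were called in either direction and 0.335% as lower in LRCs. The CPM of the groups did not overlap for 2 of the 6 (18.7% of all tested genes), and 3 of the 6 kept 1 sign in all 3 experiments (46.5% of all tested genes). Fitted values were below 0 for 4 genes and above 0 for 2, with a median of -0.30 beside -0.10 over all tested genes. As the genes were chosen on this contrast, nothing is read from these counts.

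In both groups, experiment 2 had the lowest *Ptrf* and the highest *Prkcdbp* of the 3 experiments. The ratio of *Ptrf* to *Prkcdbp* per length was 0.234 in LRCs and 0.240 in non-LRCs of experiment 2. It was 1.14 and 0.857 in experiment 1, and 0.946 and 0.767 in experiment 3. The ratio thus lay close together in the 2 cell populations of experiment 2 and was lower there than in every other library. Fitted with the group in the model, *Ptrf* in experiment 2 differed by -1.57 on the log2 scale from experiment 1 and by -1.10 from experiment 3. This test of the 3 experiments was added after the values were seen. In edgeR it gave *Ptrf* an unadjusted p of 0.000997 and an adjusted p of 0.0982, and called 0 of the 13728 genes (0%), with 3044 at an unadjusted p below 0.05. DESeq2's likelihood ratio test gave *Ptrf* an adjusted p of 1.6e-07, where 2666 of 17835 genes (14.9%) were called. For *Prkcdbp* the adjusted p was 0.234 in edgeR and 0.0794 in DESeq2. The exons of *Ptrf* and *Prkcdbp* have a GC content of 57.3 and 56.4% and a length of 3587 and 1662 bases. A role of GC content or length in the difference of experiment 2 was not tested. The labels do not name what differed between the experiments, and a role of the stretch shared with *Gm45667* was not tested.

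**Figure D4:**
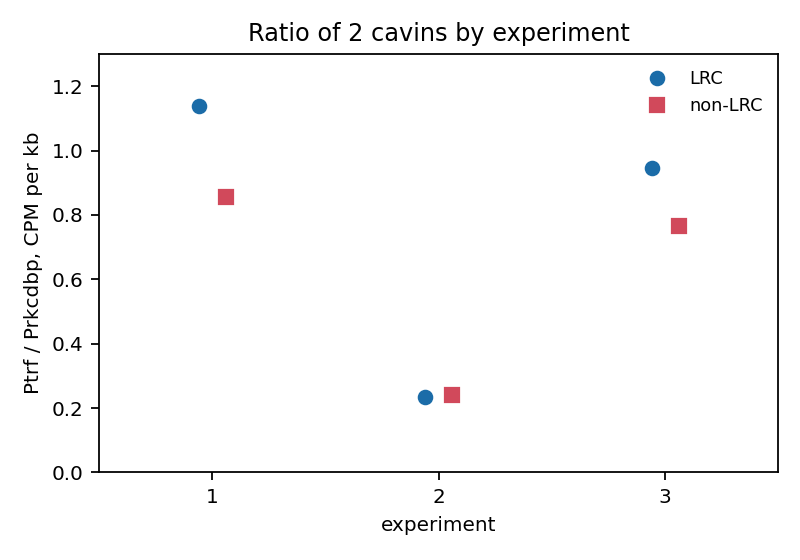
Ratio of *Ptrf* to *Prkcdbp*, both as CPM per kilobase of exon (vertical axis, linear from 0), in each experiment (horizontal axis), with 1 point for the LRC and 1 for the non-LRC library. Both libraries of experiment 2 lie at 0.234 and 0.240, and the other 4 between 0.767 and 1.14.

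Because *Cav3* and *Murc* are muscle genes, skeletal muscle markers were examined in the same libraries. Of 25 markers, 11 passed the filter, and none was called in either direction with edgeR. All 11 fitted values were below 0, with a median of -0.96 (all genes -0.10). The filter could be passed through the libraries of a single group, and *Casq1* had 3, 0 and 20 counts in LRCs and 64, 17 and 107 in non-LRCs. The signs and their median are therefore not read as a result. The summed level of the 25 was 18.7 to 28.3 CPM for LRCs against 37.7 to 56.9 CPM for non-LRCs. Most of this sum was *Tnni2* and *Tnnt3*, fast troponin subunits, so it does not describe the list as a whole. Their fitted values were -0.91 (SE 0.32) and -0.38 (SE 0.32), with edgeR adjusted p of 0.214 and 0.591. The list was uneven. *Myh2* and *Myh7*, myosin heavy chains of adult fibres, and *Myog*, the myogenic factor, had 0 counts in all 6 libraries, and *Ckm*, muscle creatine kinase, had 2 counts in a single library. *Acta1*, the skeletal actin and one of the most abundant muscle transcripts, had 18, 28 and 24 counts in LRCs and 255, 41 and 146 in non-LRCs, fewer than *Cav3* in every library. Without normalization for length, *Cav3* stood at 2.21 to 15.5 times *Acta1* in LRCs and 6.66 to 29.2 times in non-LRCs. Other markers were detected: *Tnni2* and *Tnnt3* reached 29.5 and 12.5 CPM, and *Des*, *Ryr1* and *Neb* had 517, 346 and 283 counts in the non-LRC library of experiment 1.

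**Figure D5:**
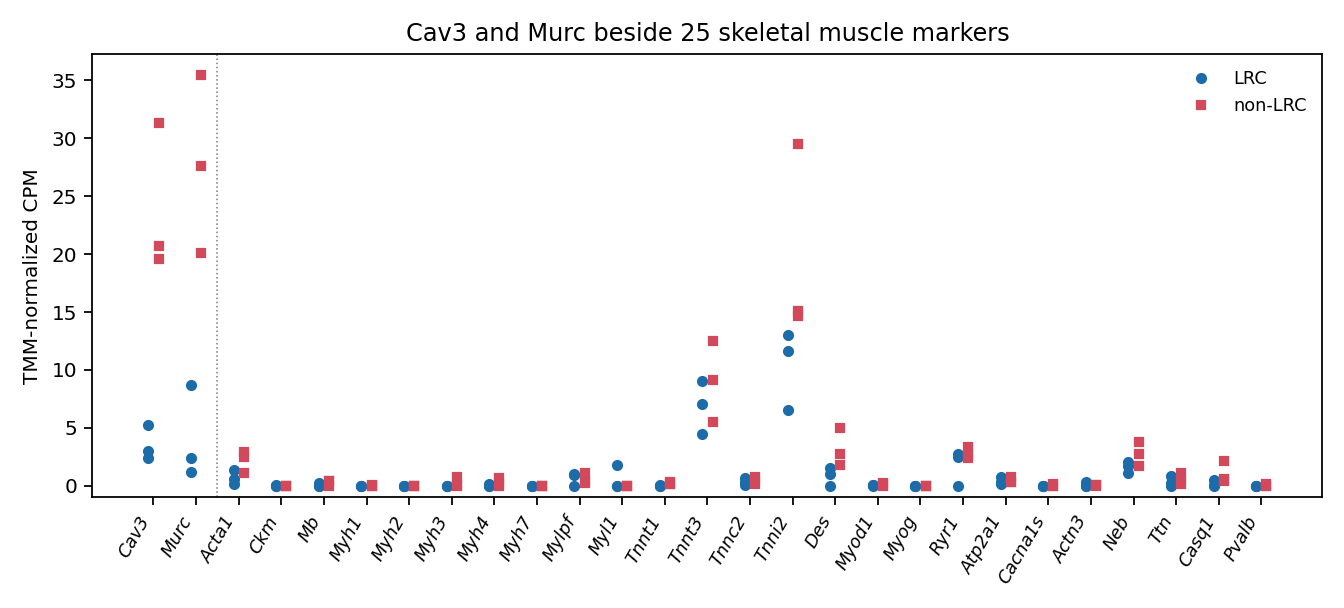
TMM-normalized CPM (vertical axis, linear) of *Cav3* and *Murc*, left of the dotted line, and of 25 skeletal muscle markers, with 1 point for each of the 3 LRC and 3 non-LRC libraries. *Cav3* and *Murc* reach 31.3 and 35.5 CPM in non-LRCs, where most of the markers, *Ckm*, *Myh2*, *Myh7* and *Myog* among them, are at or close to 0. The highest markers, *Tnni2* and *Tnnt3*, reach 29.5 and 12.5 CPM.

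Endothelial and adipocyte markers had low sums. Of 14 endothelial markers 5 passed the filter and none was called. *Cdh5*, *Kdr*, *Emcn* and *Robo4* were at 0 in all libraries. The 3 of highest mean level, *Eng*, *Erg* and *Egfl7*, were at 3.87, 3.27 and 2.30 CPM (LRCs) and 3.51, 1.235 and 1.32 CPM (non-LRCs). The summed level was 7.66 to 15.6 CPM for LRCs against 7.06 to 8.39 CPM for non-LRCs. Of 8 adipocyte markers 3 passed and none was called, with *Adipoq*, *Lep* and *Cfd* at 0 throughout and sums of 6.14 to 10.5 against 10.3 to 14.3 CPM. *Lpl*, *Fabp4* and *Pparg* were detected, at means of 3.94, 2.80 and 1.08 CPM (LRCs) and 9.39, 0.81 and 2.43 CPM (non-LRCs). *Cav1* alone exceeded either sum in every library, but what part such cells had in its level was not tested. Of 10 smooth muscle and pericyte markers 9 passed and none was called (median -0.41). Their sums were high, at 555 to 1432 CPM for LRCs and 539 to 1366 CPM for non-LRCs, and most of each mean sum was *Cspg4*, a proteoglycan that chondrocytes also make, at means of 848 and 766 CPM. Leukocyte and erythroid markers gave 4 of 12 that passed and none called (median -0.77, sums of 7.67 to 25.9 and 8.39 to 11.3 CPM), with *Hba-a1* and *Hba-a2* at 0. *Cd68* was the most abundant of them, at a mean of 11.9 CPM (LRCs) and 7.39 CPM (non-LRCs). The sort had kept only CD45-negative cells, which the paper describes as non-hematopoietic.

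The cartilage markers also moved with the contrast in part. Of 7 hypertrophic markers, 1 was called lower in LRCs by edgeR. This was *Panx3*, a pannexin channel of prehypertrophic and hypertrophic chondrocytes, at 25.2 ± 30.2 CPM in LRCs against a mean of 283 CPM in the non-LRC libraries (fitted difference -4.01 on the log2 scale, adjusted p = 0.0177). *Col10a1* and *Ihh* had fitted values of -2.95 and -5.35 but were not called (edgeR adjusted p of 0.101 and 0.150). *Ihh* had 0, 0 and 47 counts in LRCs and 96, 43 and 420 in non-LRCs. The paper names both among the genes raised in non-LRCs. The list had 6 of 7 values below 0, a median of -0.93 and sums of 966 to 2126 CPM for LRCs against 1122 to 2816 CPM for non-LRCs. Of 10 osteoblast markers 8 passed, 1 was called higher in LRCs (*Col1a1*, bone collagen) and the median was -0.69. The H2B-GFP cassette lies at *Col1a1*, and a role of this in the *Col1a1* difference was not tested. Of the 8 fitted values, 5 were below 0. *Bglap*, *Bglap2* and *Sp7* were among these at -1.14, -1.48 and -1.25, and none of them was called. Of 13 growth plate chondrocyte markers none was called (median -0.47). What part any of these cell types had in the *Cav3* difference was not tested.

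The genes that work with caveolins were mostly without a called difference. In the list of caveola neck and coat accessory genes, 10 of 11 passed the filter, *Murc* among them, and none was called by edgeR; the median was 0.20. *Pacsin2*, a membrane-bending protein of the caveola neck, was at 499 ± 90.1 CPM (LRCs) and 495 ± 82.2 CPM (non-LRCs, log2 fold change 0.01, SE 0.13). The EH-domain ATPases *Ehd4* and *Ehd1* had fitted values of 0.39 and 0.20, with adjusted p of 0.221 and 0.688 in edgeR. Among flotillins and other raft proteins, all 11 passed, none was called and the median was -0.18. *Myadm*, a raft-associated membrane protein, was the most abundant of these at a mean of 1126 CPM (LRCs) and 1275 CPM (non-LRCs).

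Of 21 receptors and kinases described as caveolin partners, 2 rose in LRCs, none fell, and the median was 0.29. Over all tested genes, 120 of 13728 were called higher in LRCs and the median was -0.10. The CPM of the groups did not overlap for 18.7% of them. As the list was chosen with earlier results known, nothing is read from its count. *Nos2*, the inducible nitric oxide synthase, had 1691, 400 and 716 counts in LRCs and 86, 43 and 181 in non-LRCs. All LRC counts were above all non-LRC counts despite the smaller total of experiment 2. The log2 fold change was 3.47 (SE 0.53, edgeR adjusted p = 0.0489). *Prkcd*, protein kinase C delta, had 1583, 627 and 498 counts in LRCs and 242, 145 and 135 in non-LRCs, again without overlap, and a log2 fold change of 2.54 (SE 0.33, edgeR adjusted p = 0.0375). Neither call held without experiment 1, where edgeR gave 3.11 for *Nos2* (adjusted p = 0.179) and 2.53 for *Prkcd* (adjusted p = 0.148), or without the experiment block (adjusted p of 0.169 and 0.143). With the GC and length correction *Nos2* was at an adjusted p of 0.0509. The cavin named for binding this kinase, *Prkcdbp*, was at 0.11 in the same fit. *Tgfbr2*, a TGF-beta receptor, was the partner with the highest mean level in LRCs and had a log2 fold change of 0.84 with an edgeR adjusted p of 0.0628.

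The genes most like each of the 6 were taken as the 3 with the highest Pearson r of log2 CPM over the 6 libraries among 13727 other genes, a description only, since the libraries share 3 experiments. For *Cav3* these were *Cdk5r1* (r = 0.997), *Hkdc1* (0.992) and *Zfp867* (0.991), and *Murc* stood at rank 142 with r = 0.946. *Cdk5r1*, which encodes an activator of the kinase Cdk5, averaged 6.27 CPM (LRCs) and 8.90 CPM (non-LRCs), a far smaller step than that of *Cav3*. For *Cav1* they were *Tnfrsf10b*, *Rgma* and *Pcgf6* (0.977 to 0.958), and for *Cav2* *Ank3*, *Acsl5* and *Ephx2* (0.998 to 0.995). For *Ptrf* they were *Yes1*, *Ipo13* and *Gtf3c4* (0.993 to 0.992). *Sdpr* was nearest to *Tex12*, *Hnrnpm* and *Dus2l* (0.998 to 0.997), and *Prkcdbp* to *Pilra*, *Atp5sl* and *S1pr4* (0.997 to 0.994). No gene was in more than 1 of these 6 sets.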

How the data were processed

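RNA-seq was analysed for 6 libraries, 3 of LRCs and 3 of non-LRCs, grouped and numbered by experiment from the sample labels. Per the study's methods and the labels, cDNA was amplified with a SMART-Seq kit and Nextera XT, reads were aligned to mm10 (GRCm38) with TopHat2 2.0.13 and Bowtie2 2.2.1, and unambiguous reads per gene were counted with HTSeq. The gene annotation and strand setting are not given in the sources used here. The authors deposited raw counts for 23159 genes, which were the input of all tests. They also deposited a normalized signal, the counts divided by 1 size factor per library (checked to a relative spread of 9.9e-15 over genes of at least 50 counts), and rlog values on the log2 scale, made with DESeq2 and used as an alternative. No library was a copy of another by a chi-square comparison of counts.

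Counts were fitted in R 4.3.3 with edgeR 4.0.16 (TMM, filterByExpr with a minimum count of 10 and total of 15, quasi-likelihood test, prior count 0.125) with the experiment as a block, as the study's methods pair the samples. Deviations from group means correlated at 0.197, 0.288 and 0.336 between libraries of the same experiment, and at -0.2742 to 0.1275 between those of different experiments. A gene was called at a Benjamini-Hochberg adjusted p below 0.05 over all tested genes and a fold of at least 2. Log2 CPM used a prior count of 2. Exon lengths came from GENCODE vM21, which 20778 genes matched by current and 1918 by older symbol, and 463 not at all. The fits were tested on simulated data. The 6 genes and the 11 gene lists were chosen with earlier results of these data known. Besides the 6 genes, the text names list genes that were called or among the 3 with the highest mean CPM of a list, the 3 genes most like each of the 6, and, chosen after their values were seen, *Murc* and the other markers given with their values. Alternatives were no block, DESeq2 1.42.0, limma-voom (limma 3.58.1), DESeq2 size factors, other count filters, each experiment left out, a prior count of 2, GC and length correction (lowess span 0.3) and rlog values. RefSeq promoters of GRCm38.p6 were matched for *Cav1*, *Cav2*, *Cav3*, *Ptrf*, *Sdpr* and *Murc*. *Prkcdbp* was not matched.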

Additional observations from a re-analysis of the deposited data

How the results depend on the processing

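The number of genes called by edgeR was 166 with the experiment as a block (replicate block) and 1 without it, and rose to 799 with DESeq2, 621 with limma-voom and 434 with at least 10 counts in every library, a filter under which *Sdpr* was not tested. Leaving out 1 experiment gave 35 to 555 genes, 35 without experiment 1 and 555 without experiment 2. Of the 6 genes, 1 was called; 0 without the block, without experiment 1 or after the GC and length correction, 2 with DESeq2, and 0 to 1 over the experiments left out. *Cav3* kept its direction under every alternative run, from -3.23 to -2.51 with an experiment left out, with an edgeR adjusted p of 0.0822 without the block (-2.76); rlog values, which shrink low counts, gave -1.61. Of the listed partner and marker genes 4 were called, 0 without the block, 14 with DESeq2, 9 with limma-voom and 2 to 10 with an experiment left out. Fitted values that turned sign were those of *Cav1*, from -0.58 to 0.12 with an experiment left out (0.12 without experiment 2) and after the GC and length correction (0.00), and of *Prkcdbp*, from -0.12 (without experiment 2) to 0.36. The rlog difference of *Sdpr* was -0.38 and that of *Murc* -1.84. Differences between experiments were called for 0 genes by edgeR and 2666 by the DESeq2 likelihood ratio test. The cause of these changes was not tested. In the LRC library of experiment 2, *Sdpr* was at 0, where 3 counts are 0.143 CPM. What part depth or the number of cells had in this value was not tested.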
